A study of Mus musculus with 20 samples.

Results

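The 39 genes described here encode the machinery that copies DNA in S phase, the stage of the cell cycle in which a cell duplicates its genome. They were chosen by symbol, each matched to its Ensembl ID, and make up 39 of the 63318 genes in the deposited count table (53633 of which carry an Ensembl ID). They fall into 7 roles: origin licensing (5 genes), the replicative helicase (10), polymerases, clamp and clamp loader (9), the joining of Okazaki fragments (2), deoxynucleotide supply (5), the copying of chromatin and DNA methylation (4), and regulators of entry into S phase (4). All 39 passed the filter on low counts.

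The libraries were made from poly(A) RNA of mouse heart in 4 groups of 4 short-read libraries each. In the myocardial infarction (MI) group tissue was taken at 72 h after the operation, from the infarct core together with its periphery. In the ischemia-reperfusion (IR) group, 40 min of "LCA" (left unexplained in the labels) were followed by 72 h of reperfusion, and core tissue alone was taken. Each injury had its own sham-operated group, MISham and IRSham, with tissue from the same regions as its injured group. Between MI and IR, injury type and sampled region therefore cannot be told apart. The labels give no strain, sex or age, nor whether libraries came from different animals. The p-values thus rest on library-to-library spread, which may be technical.

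Replication is prepared in G1, when the origin recognition complex, Cdc6 and Cdt1 load the MCM2–7 helicase onto DNA. At the start of S phase Cdc45 and the GINS complex join it, the helicase opens the strands, and polymerases held by the sliding clamp PCNA copy them. Many of these genes are known targets of the E2F transcription factors, which the retinoblastoma protein holds back in resting cells. Most cardiomyocytes of the adult mouse heart have left the cell cycle, whereas fibroblasts, endothelial cells and leukocytes can divide after injury. In bulk tissue a change in the number of cells of a type and a change in RNA per cell cannot be told apart.

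Short promoter stretches of genes that rose, most of them licensing and helicase genes, are shown because many replication genes are known E2F targets. RefSeq promoter windows (build GRCm38.p6, 250 bases before to 50 bases after a gene start; the deposited files use GRCm39) were given for 32 of the 39 genes, in 39 windows. The words searched, on both strands, were TTTCCCGC, TTTCGCGC, TTTGCCGC and TTTGGCGC, common spellings of the E2F site. In the stretches below they stand in capitals as they read on the gene's own strand, and words that overlap run together. Mcm3 and Mcm7 each held 1 more word outside the stretch shown.
Orc1 (chr4:108579409-108579452, + strand): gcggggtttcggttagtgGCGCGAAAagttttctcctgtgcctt
Cdc6 (chr11:98907995-98908038, + strand): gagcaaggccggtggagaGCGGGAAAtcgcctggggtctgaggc
Cdt1 (chr8:122568029-122568064, + strand): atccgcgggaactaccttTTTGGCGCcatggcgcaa
Mcm3 (chr1:20820268-20820311, - strand): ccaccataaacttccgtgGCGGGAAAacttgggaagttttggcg
Mcm5 (chr8:75109338-75109381, + strand): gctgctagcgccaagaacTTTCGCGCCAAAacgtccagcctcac
Mcm7 (chr5:138172023-138172066, - strand): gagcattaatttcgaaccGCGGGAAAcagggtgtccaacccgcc
Lig1 (chr7:13278834-13278875, + strand): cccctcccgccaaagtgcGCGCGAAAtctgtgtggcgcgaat
Uhrf1 (chr17:56304110-56304153, + strand): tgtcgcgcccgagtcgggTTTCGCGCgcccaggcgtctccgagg

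The Mcm6 window held 3 E2F words, more than any other member's, and is given whole with them in capitals. The Dut window is set beside it because Dut is the member with a window that passed in neither injury with TMM-scaled counts. It held none of the 4 words. In all, 19 members with a window held none, among them Mcm10 and Rrm2, which rose most after MI and after IR.
Mcm6 (chr1:128359656-128359955, - strand): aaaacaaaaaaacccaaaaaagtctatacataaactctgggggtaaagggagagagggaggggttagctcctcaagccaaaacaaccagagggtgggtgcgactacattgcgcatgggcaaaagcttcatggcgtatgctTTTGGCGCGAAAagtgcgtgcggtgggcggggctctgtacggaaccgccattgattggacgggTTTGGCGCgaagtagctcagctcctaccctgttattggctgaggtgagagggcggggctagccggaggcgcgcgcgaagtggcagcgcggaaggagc
Dut (chr2:125247265-125247564, + strand): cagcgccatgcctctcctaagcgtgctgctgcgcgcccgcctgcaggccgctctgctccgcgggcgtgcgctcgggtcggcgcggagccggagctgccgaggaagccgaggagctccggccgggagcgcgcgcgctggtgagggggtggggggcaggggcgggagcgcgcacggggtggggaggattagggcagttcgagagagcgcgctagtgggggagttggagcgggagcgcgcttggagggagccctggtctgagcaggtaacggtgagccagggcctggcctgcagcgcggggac

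An E2F word stood in 13 of the 39 member windows (33.3%), against 2.26% of all 32851 windows of the table. By gene it stood in 40.6% of the 32 members, against 3.29% of 17492 coding genes. The genes with a word were Orc1, Cdc6, Cdt1, Mcm3, Mcm5, Mcm6, Mcm7, Pola1, Pold1, Rfc3, Lig1, Uhrf1 and Dnmt1. The GC box GGGCGG stood in 71.8% of member windows against 35.7% of all, and CCAAT in 56.4% against 37.4%. By gene the GC box stood in 78.1% of members and 49.2% of coding genes, and CCAAT in 59.4% and 42.3%. TTTGAA, part of the cell-cycle homology region known from genes of late cell cycle, stood in 12.8% of windows against 17.9%, and by gene in 15.6% against 18.5%. The median log2 fold change after MI was 2.47 for the 13 genes with an E2F word and 2.29 for the 19 with a window and none. After IR the medians were 1.72 and 1.61. A match describes the letters of a window and shows no binding.

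Depth differed between the groups. MI libraries held 57215382 to 63070805 counts, MISham libraries 24273984 to 27569120, IR libraries 26175373 to 31832969, and IRSham libraries 25518543 to 29759773. The lowest count of any member in a library was 1. Levels are given as CPM scaled by TMM, and log2 fold changes are ± SE from edgeR's quasi-likelihood test, where a gene is called at an adjusted p under 0.05 over 19741 genes. A change of scaling shifted all genes. Their median log2 fold change with TMM was 0.08 after MI and 0.03 after IR, with library size alone 0.393 and 0.323, and with TPM summed per gene 0.703 and 0.575. TPM was summed over the transcripts matched to a gene in GENCODE M21, so unmatched transcripts are left out. With library size alone the calls over all genes moved from 6861 higher and 5960 lower to 9318 and 4270 after MI, and from 5814 and 5567 to 8411 and 3754 after IR. On the principal component that held 55.1% of the variance of all genes, MISham replicates 1 and 3 lay nearer to the injured libraries than replicates 2 and 4. There MISham replicates 1 and 3 (71 and 66.8) lay within the range of the IRSham libraries (60.9 to 85.1). MISham replicates 2 and 4 (113.2 and 106.3) lay beyond that range, farther from the injured libraries. IR replicates 1 and 3 lay nearer to the shams than replicates 2 and 4.

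Replication genes rose after both injuries. After MI, 37 of the 39 were called higher and 1 lower, where 34.8% of all genes tested were higher and 30.2% lower. After IR, 36 were higher and 1 lower, where 29.5% and 28.2% of all genes were. The median log2 fold change of the 39 was 2.18 after MI and 1.59 after IR, against 0.08 and 0.03 for all genes. For 37 genes every MI library exceeded every MISham library, as was so for 34.1% of all genes, and for 35 every IR library exceeded every IRSham library, against 26.1%. The gene that fell in both was Gmnn, whose injured libraries lay below its shams without overlap (as for 28.6% of all genes in MI and 25.4% in IR), and Dut passed in neither. By summed TPM, with limma, 38 of the 39 were higher after MI and 37 after IR, where 66.3% and 62.3% of all genes were. The counts of calls were the same without MISham replicates 1 and 3, or without IR replicates 1 and 3.

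**Figure D1:**
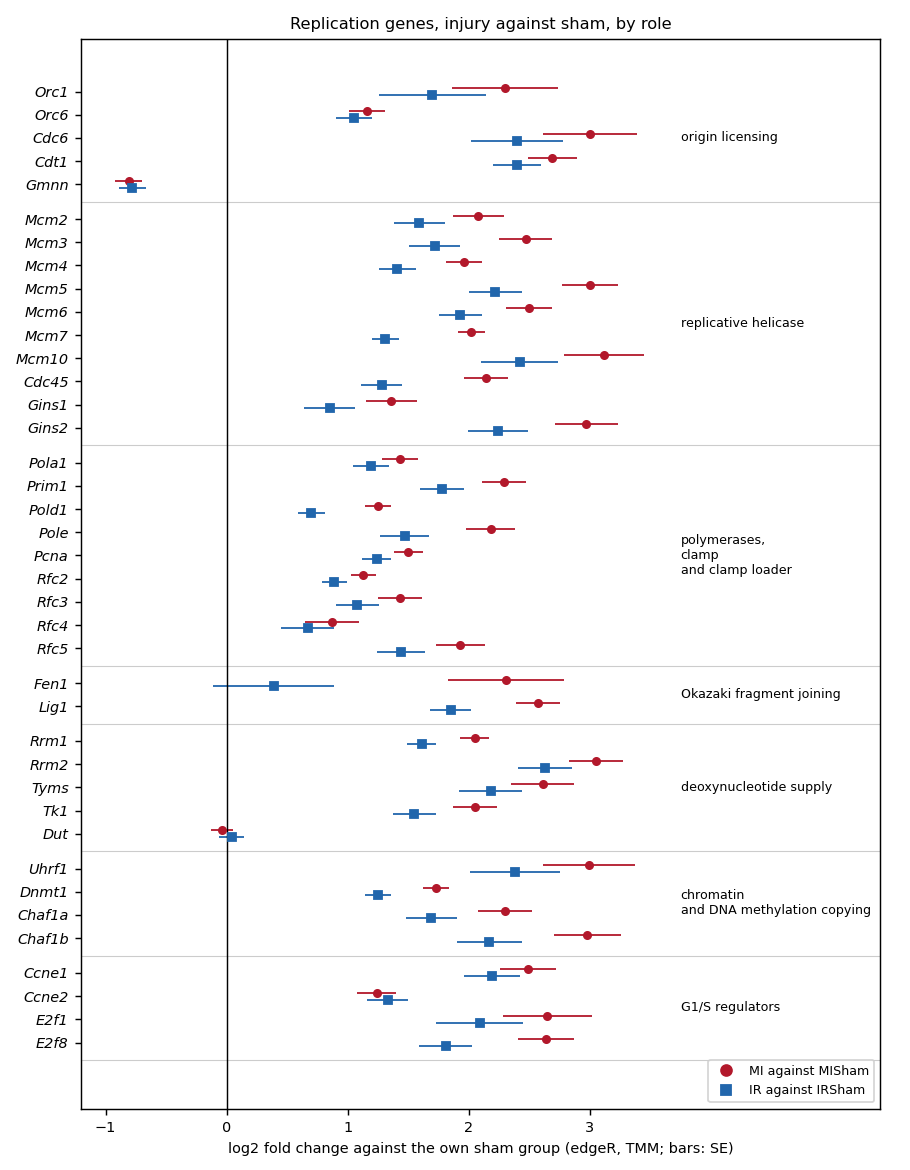
Log2 fold change of each of the 39 replication genes against its own sham group (x axis; points, with SE as bars), for MI (circles) and IR (squares), grouped by role. Gmnn lies below 0 in both injuries with TMM-scaled counts, Dut lies near 0 (it was called higher with library size alone and by summed TPM), and the other genes lie to the right of 0, between 0.39 (Fen1 after IR) and 3.12 (Mcm10 after MI).

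Among the origin licensing genes the loaders rose and the inhibitor of licensing fell. Cdc6, the loader ATPase with the largest change of the 5 in MI, stood at 16.0, 18.6, 13.3 and 15.6 CPM in the MI libraries and at 1.93, 0.675, 4.29 and 0.886 in MISham. It stood at 8.43, 11.6, 13.2 and 10.9 CPM in IR and at 2.02, 1.5, 2.34 and 2.49 in IRSham. Every injured library was above every sham library, MISham replicate 3 was the highest of the shams, and all MI libraries were above all IR libraries. The log2 fold change of Cdc6 was 3.0 ± 0.39 after MI (adjusted p = 5.22e-06) and 2.4 ± 0.38 after IR (adjusted p = 6.34e-05). Cdt1, which brings the helicase to the origin, rose by 2.69 ± 0.20 and 2.4 ± 0.20. Orc1, the ATPase subunit of the origin recognition complex, rose by 2.30 ± 0.44 and 1.7 ± 0.44, and Orc6, its smallest subunit, by 1.16 ± 0.15 and 1.05 ± 0.15.

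Gmnn encodes geminin, which binds Cdt1 and keeps origins from being licensed again within S phase. Its levels were 17.1, 17.7, 18.4 and 18.2 CPM in MI against 34.3, 28.8, 28.7 and 33.0 in MISham. They were 15.9, 16.7, 24.2 and 17.8 CPM in IR against 31.4, 35.5, 30.4 and 31.3 in IRSham. All injured libraries were below all shams of their own comparison, and IR replicate 3 was the highest injured library. The log2 change was -0.81 ± 0.11 after MI (adjusted p = 5.17e-06) and -0.78 ± 0.11 after IR (adjusted p = 1.16e-05).

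The fall of Gmnn was called in counts and not in TPM. By summed TPM, Gmnn stood at 34.6 ± 1.68 in MI and 35.9 ± 3.54 in MISham (mean ± SD, n = 4), and at 35.6 ± 7.55 in IR and 39.6 ± 1.09 in IRSham, and the groups overlapped in both comparisons. The log2 change on the log2(TPM + 1) scale was -0.05 ± 0.12 after MI (limma adjusted p = 0.711) and -0.17 ± 0.12 after IR (limma adjusted p = 0.2). Relative to the median of all genes on that scale it was -0.75 in each. The ratio of Cdt1 to Gmnn counts within a library, which does not depend on library scaling, ran from 1.33 to 2.16 in MI and from 0.120 to 0.184 in MISham. It ran from 1.17 to 1.90 in IR and from 0.108 to 0.238 in IRSham, so the injured and sham libraries did not overlap. The same ratio from TPM was 0.378 to 0.609 in MI and 0.0349 to 0.0640 in MISham, then 0.330 to 0.554 in IR and 0.0398 to 0.0586 in IRSham.

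**Figure D2:**
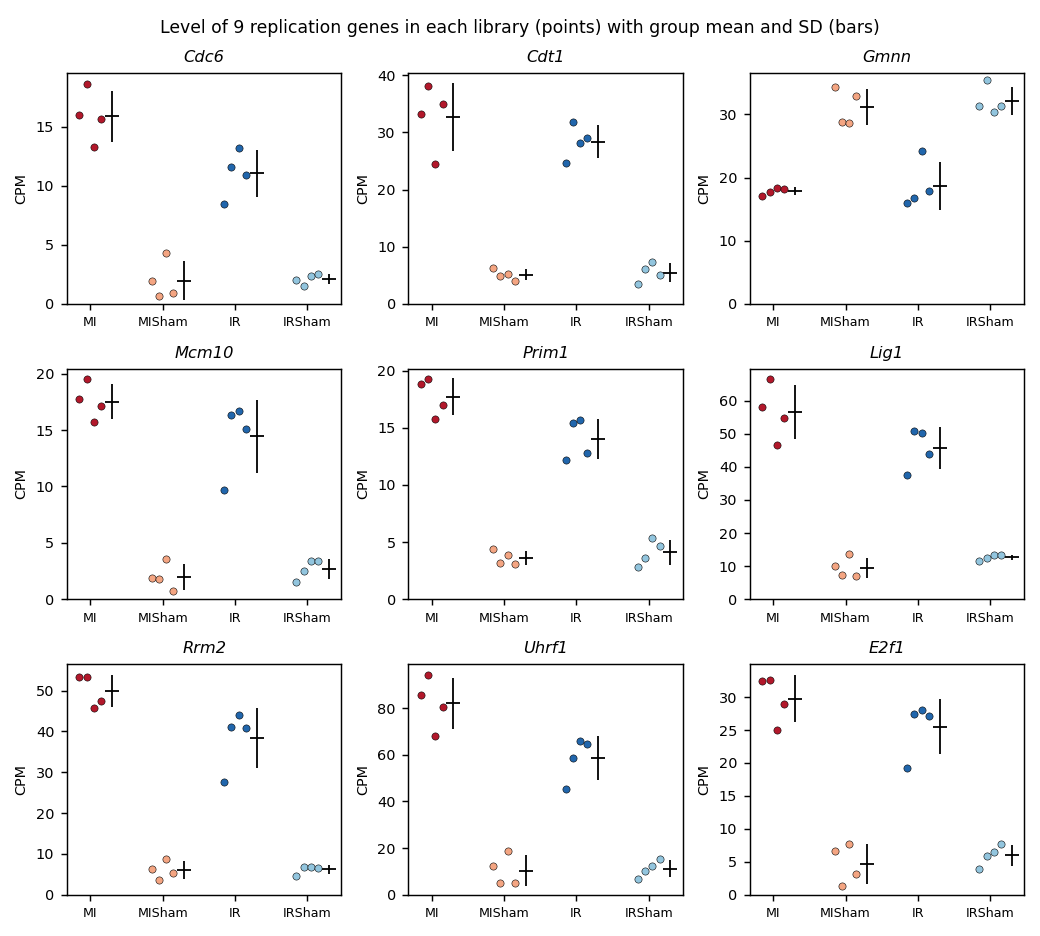
CPM (y axis, from 0) of 9 replication genes in each of the 16 libraries (points, replicates 1 to 4 from left to right), with the group mean and SD as a bar beside them. Gmnn is the gene of the 9 with lower TMM-scaled counts in MI and IR than in the shams (by summed TPM its groups overlap), and IR replicate 1 is the lowest IR library in each of the 9 panels.

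All 10 helicase genes rose after both injuries. Mcm10, which helps to activate the loaded helicase, had the largest log2 fold change of all 39 genes after MI. It stood at 17.8, 19.5, 15.7 and 17.1 CPM in MI and at 1.84, 1.80, 3.54 and 0.746 in MISham, a log2 fold change of 3.12 ± 0.33 (adjusted p = 5.6e-07). In IR it stood at 9.66, 16.3, 16.7 and 15.1 CPM and in IRSham at 1.54, 2.46, 3.42 and 3.39, a log2 fold change of 2.42 ± 0.32 (adjusted p = 9.26e-06). The injured and sham libraries did not overlap, and IR replicate 1 lay well below the other IR libraries.

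The 6 subunits of the MCM2–7 ring rose by unequal amounts. Mcm5 rose most, by 3.0 ± 0.23 after MI and 2.22 ± 0.22 after IR, and Mcm4 least after MI (1.96 ± 0.15). After IR, Mcm7 rose least of the 6, by 1.31 ± 0.11. Mcm2, Mcm3 and Mcm6 lay between, from 2.08 to 2.50 after MI and from 1.59 to 1.93 after IR. On the per-length TPM scale Mcm6 was the highest of the 6 in MI (mean 46.5 TPM) and Mcm7 the lowest (14 TPM), a ratio of 3.32. In MISham they ran from 5.25 TPM for Mcm6 to 3.01 TPM for Mcm5, a ratio of 1.74. In IR the highest was again Mcm6 (36.9 TPM) and the lowest Mcm7 (12.2 TPM), a ratio of 3.02, while in IRSham they ran from Mcm3 (6.75 TPM) to Mcm4 (4.13 TPM), a ratio of 1.63. These sums leave out unmatched transcripts, so the order and ratios may not be those of the whole genes.

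The partners that turn the ring into an active helicase rose too. Gins2, a GINS subunit, rose by 2.97 ± 0.26 after MI and 2.24 ± 0.25 after IR, and Gins1, another, by 1.36 ± 0.21 and 0.85 ± 0.21. Cdc45 rose by 2.14 ± 0.18 and 1.28 ± 0.17 in counts. Its mean counts were 17.1 CPM in MI and 3.87 in MISham, then 13.0 in IR and 5.36 in IRSham. By summed TPM, which leaves out unmatched transcripts, Cdc45 averaged 1.92 in MI and 0.637 in MISham, 1.13 in IR and 1.12 in IRSham. On that scale its log2 change was 0.81 ± 0.30 after MI (limma adjusted p = 0.0199), which is 0.11 above the median of all genes, and 0.04 ± 0.30 after IR (limma adjusted p = 0.901). The groups overlapped in both. For Gins2, 67.3% of the annotated exon bases lie opposite exons of Gse1, and since no source used here states the strand setting of the counting, reads of the 2 genes cannot be told apart in the counts. Summed TPM for Gins2 rose by 2.77 after MI and 2.19 after IR.

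All 9 genes of the polymerase, clamp and clamp loader group rose, with a median log2 fold change of 1.43 after MI and 1.19 after IR, where the helicase medians were 2.30 and 1.66. Prim1, the catalytic primase subunit that lays down RNA primers, had the largest change. It stood at 18.8, 19.3, 15.8 and 17.0 CPM in MI, 4.37, 3.15, 3.86 and 3.08 in MISham, 12.2, 15.4, 15.7 and 12.8 in IR, and 2.85, 3.57, 5.36 and 4.62 in IRSham. Injured and sham libraries did not overlap, and all MI libraries lay above all IR libraries. Prim1 rose by 2.29 ± 0.18 after MI (adjusted p = 1.1e-08) and by 1.78 ± 0.18 after IR (adjusted p = 2.65e-07).

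The catalytic subunits of the 3 replicative polymerases rose by different amounts. Pole, of the leading-strand polymerase epsilon, rose by 2.18 ± 0.20 after MI and 1.47 ± 0.20 after IR. Pola1, of polymerase alpha, rose by 1.43 ± 0.15 and 1.19 ± 0.15, and Pold1, of polymerase delta, by 1.25 ± 0.11 and 0.70 ± 0.11. Pcna, the clamp, rose by 1.5 ± 0.12 and 1.24 ± 0.12, and on the per-length scale it had the highest mean of the 39 genes in MI (132 TPM) and IR (110 TPM). The clamp loader genes rose by 1.93 ± 0.20 and 1.44 ± 0.20 for Rfc5, 1.43 ± 0.18 and 1.08 ± 0.18 for Rfc3, and 1.13 ± 0.10 and 0.89 ± 0.10 for Rfc2. Rfc4 rose least of the genes called higher, by 0.87 ± 0.22 after MI and 0.67 ± 0.22 after IR. Rfc4 libraries overlapped between IR and IRSham, and its IR call was lost without IR replicate 2 (0.50, adjusted p = 0.0738) or without IRSham replicate 1 (0.59, adjusted p = 0.0526).

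Of the pair that joins Okazaki fragments, the short pieces of the lagging strand, Lig1 rose in both injuries. Lig1, the ligase that seals the nicks, stood at 58.0, 66.6, 46.7 and 54.8 CPM in MI against 9.99, 7.2, 13.6 and 7.09 in MISham. It stood at 37.6, 50.9, 50.3 and 43.9 CPM in IR against 11.5, 12.4, 13.3 and 13.3 in IRSham. The groups did not overlap, and the log2 fold change was 2.57 ± 0.18 after MI (adjusted p = 7.29e-09) and 1.85 ± 0.17 after IR (adjusted p = 2.61e-07).

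Fen1, the nuclease that trims the flaps ahead of ligation, differed between the count and the TPM table. Its counts gave 1.33, 1.22, 0.786 and 1.12 CPM in MI against 0.241, 0.135, 0.315 and 0.187 in MISham, a log2 fold change of 2.31 ± 0.48 (adjusted p = 0.000433) with no overlap. In IR it had 0.176, 0.474, 0.453 and 0.299 CPM against 0.450, 0.0440, 0.201 and 0.368 in IRSham, and these overlapped (0.39 ± 0.50, adjusted p = 0.532). The summed TPM of Fen1 was 12.2, 19.3, 16.8 and 16.9 in IR against 3.46, 3.45, 3.67 and 3.52 in IRSham, a log2 change of 1.92 ± 0.15 (limma adjusted p = 9.18e-08). In MI it was 19.9, 23.2, 14.9 and 18.3 TPM against 2.89, 1.75, 3.02 and 2.77 in MISham, a log2 change of 2.47 ± 0.15 (limma adjusted p = 4.67e-09). In the GENCODE M21 annotation 78.8% of Fen1 exon bases lie opposite exons of Gm10143, an antisense gene. The part of this overlap in the low counts was not tested.

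**Figure D3:**
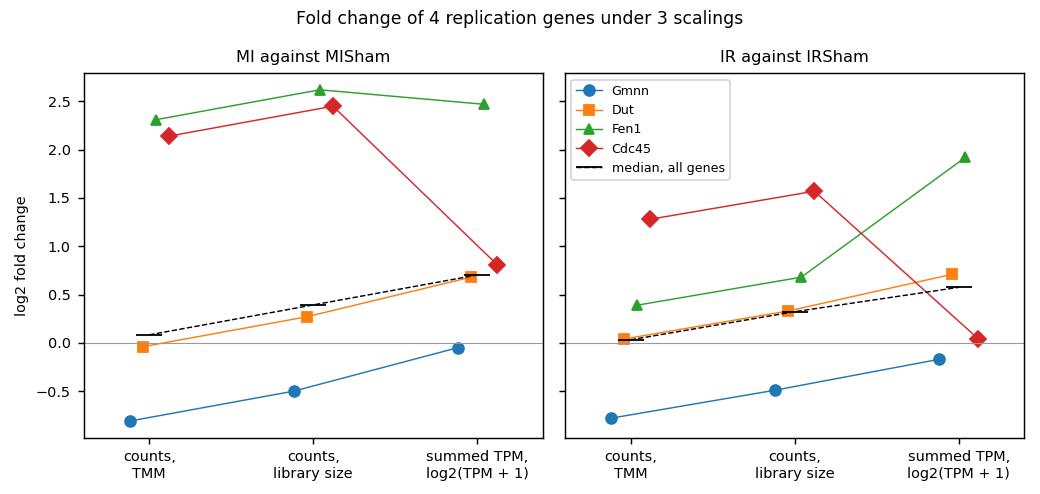
Log2 fold change (y axis) of Gmnn, Dut, Fen1 and Cdc45 after MI (left) and IR (right) from TMM-scaled counts, counts scaled by library size, and summed TPM on the log2(TPM + 1) scale, with the median of all genes as black dashes. Gmnn lies below the median of all genes under each scaling, from -0.81 with TMM to -0.05 with summed TPM after MI, Dut lies within 0.14 of it with summed TPM, and Fen1 after IR rises from 0.39 to 1.92.

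Of the genes of deoxynucleotide supply 4 rose and Dut did not pass in either comparison. Rrm2, the small subunit of ribonucleotide reductase and the one known to be made mainly in S phase, stood at 53.4, 53.2, 45.6 and 47.4 CPM in MI against 6.42, 3.51, 8.86 and 5.22 in MISham. It stood at 27.6, 41.1, 44.0 and 40.9 CPM in IR against 4.53, 6.87, 6.89 and 6.62 in IRSham. No injured library overlapped a sham library, and all MI libraries lay above all IR libraries. Rrm2 rose by 3.05 ± 0.22 after MI (adjusted p = 1.61e-08) and by 2.63 ± 0.22 after IR (adjusted p = 1.38e-07), the largest change of the 39 genes after IR. Rrm1, the large subunit, rose by 2.05 ± 0.12 and 1.61 ± 0.12. The ratio of Rrm1 to Rrm2 counts within a library was 2.27 to 2.67 in MI against 3.76 to 7.53 in MISham, then 2.56 to 2.76 in IR and 4.42 to 6.74 in IRSham. Tyms, which makes thymidylate from deoxyuridylate, rose by 2.61 ± 0.26 and 2.18 ± 0.26, and Tk1, which salvages thymidine, by 2.05 ± 0.18 and 1.55 ± 0.18.

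Dut encodes dUTPase, which removes dUTP so that uracil is not built into DNA. It stood at 31.1, 34.5, 31.3 and 33.6 CPM in MI and at 29.0, 33.1, 36.3 and 35.6 in MISham. It stood at 25.6, 29.8, 34.2 and 25.2 CPM in IR and at 27.5, 26.8, 29.4 and 28.2 in IRSham. The groups overlapped in both comparisons, with log2 changes of -0.04 ± 0.09 (adjusted p = 0.74; 95% interval -0.24 to 0.16) and 0.04 ± 0.10 (adjusted p = 0.762, 95% interval -0.16 to 0.24). The direction of Dut depended on the scaling: it was called higher with library size alone (0.27 after MI, adjusted p = 0.0198, and 0.33 after IR, adjusted p = 0.00793) and by summed TPM (0.68, limma adjusted p = 8.47e-05, and 0.71, limma adjusted p = 7.3e-05). Relative to the median of all genes on the summed TPM scale, Dut was at -0.02 after MI and 0.14 after IR.

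The genes that copy chromatin marks rose together. Uhrf1, which recognises newly copied DNA methylated on the old strand alone, stood at 85.7, 94.3, 68.3 and 80.4 CPM in MI against 12.4, 5.04, 18.9 and 4.85 in MISham. It stood at 45.2, 58.5, 65.9 and 64.6 CPM in IR against 6.89, 10.0, 12.5 and 15.5 in IRSham. Each injured library was above each sham, and MISham replicates 1 and 3 were above replicates 2 and 4. Uhrf1 rose by 2.99 ± 0.38 after MI (adjusted p = 8.01e-06) and by 2.38 ± 0.37 after IR (adjusted p = 7.67e-05). Dnmt1, the methyltransferase that Uhrf1 recruits, rose by 1.73 ± 0.11 and 1.25 ± 0.11. Chaf1a and Chaf1b, subunits of the CAF-1 complex that places histones on new DNA, rose by 2.30 ± 0.22 and 2.98 ± 0.28 after MI and by 1.69 ± 0.21 and 2.17 ± 0.27 after IR. Of Chaf1a exon bases, 52.5% lie opposite exons of Ubxn6. By summed TPM Chaf1a rose by 2.13 and 1.63.

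The 4 regulators of entry into S phase rose. E2f1, an activator of replication genes, stood at 32.5, 32.6, 25 and 29.0 CPM in MI against 6.66, 1.26, 7.68 and 3.17 in MISham. It stood at 19.3, 27.5, 28.1 and 27.2 CPM in IR against 3.97, 5.85, 6.45 and 7.76 in IRSham. The injured and sham libraries did not overlap, and the rise was 2.65 ± 0.37 after MI (adjusted p = 1.8e-05) and 2.09 ± 0.36 after IR (adjusted p = 0.000181). E2f8, a repressor of the E2F family that acts late in S phase, rose by 2.64 ± 0.23 and 1.81 ± 0.22. Ccne1, cyclin E1, rose by 2.49 ± 0.23 and 2.19 ± 0.23, and Ccne2, cyclin E2, by 1.24 ± 0.16 and 1.33 ± 0.17. Both cyclins activate the kinase CDK2 at the start of S phase.

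Other genes of the same pathways were counted in 7 lists of 138 genes tested. Of the 138, 102 were called higher and 18 lower after MI, and 101 higher and 17 lower after IR. Over all genes tested, 34.8% were higher and 30.2% lower after MI, and 29.5% and 28.2% after IR. These shares are to be set beside each list below. In each of the 7 lists the share that fell was below that of all genes. Of 40 other replisome and origin genes, 32 rose and 2 fell after MI, with a median log2 fold change of 0.86, and 29 rose and 1 fell after IR, with a median of 0.60. Those that rose most after MI were Ticrr, which helps Cdc45 onto origins (4.21 ± 0.46, and 2.59 ± 0.41 after IR), Clspn, a fork protein (3.34 ± 0.39 and 2.39 ± 0.37), and Dscc1, of an alternative clamp loader (2.81 ± 0.33 and 1.89 ± 0.32). The 2 that fell were Ssbp1, which binds single-stranded mitochondrial DNA (-0.28 ± 0.09 and -0.42 ± 0.09), and Rif1, a regulator of replication timing (-0.32 ± 0.09, and -0.13 ± 0.09 after IR, not called). The origin recognition subunits Orc3, Orc4 and Orc5 passed in neither comparison and ran from -0.03 to 0.01, whereas Orc1 and Orc6 rose, as did Orc2 (0.72 ± 0.11 and 0.47 ± 0.11). Orc2 to Orc5 were named after their values were seen.

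Nucleotide supply beyond the members moved both ways. Of 20 genes 12 rose and 3 fell after MI (median 0.89), and 12 rose and 5 fell after IR (median 0.45). Mthfd2, of mitochondrial folate metabolism, rose by 2.51 ± 0.26 and 2.05 ± 0.26, and Dctd, deoxycytidylate deaminase, by 1.99 ± 0.23 and 1.19 ± 0.23. Rrm2b, the ribonucleotide reductase small subunit known to serve non-dividing cells, fell by 1.31 ± 0.10 after MI and 1.05 ± 0.11 after IR while Rrm2 rose. Shmt1, of folate metabolism, and Paics, of purine synthesis, also fell (-0.47 ± 0.15 and -0.45 ± 0.06 after MI, -0.76 ± 0.15 and -0.40 ± 0.06 after IR).

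Among 23 cyclins, kinases and inhibitors of G1 and S, 17 rose and 5 fell after MI (median 1.03), and 17 rose and 4 fell after IR (median 0.83). Ccna2, cyclin A2, rose by 3.22 ± 0.31 and 2.57 ± 0.30, Cdk1, the mitotic kinase, by 3.20 ± 0.38 and 2.91 ± 0.38, and Skp2, which targets a CDK inhibitor for destruction, by 2.56 ± 0.23 and 2.39 ± 0.23. Cdkn1c, the CDK inhibitor p57, changed by -1.77 ± 0.25 and -1.48 ± 0.25, Fbxw7, which targets cyclin E for destruction, by -1.30 ± 0.14 and -0.79 ± 0.14, and Rbl2, the retinoblastoma relative p130, by -1.0 ± 0.07 and -0.44 ± 0.07. The other CDK inhibitors of the list did not move alike. After both injuries 4 rose: Cdkn1a (p21) by 1.52 ± 0.12 and 1.26 ± 0.12, Cdkn2a by 2.34 ± 0.56 and 3.87 ± 0.63, Cdkn2b by 1.89 ± 0.27 and 1.57 ± 0.26, and Cdkn2c by 1.26 ± 0.10 and 1.29 ± 0.10. Cdkn2a was scarce, with a mean of 0.235 CPM in MISham and 0.0986 in IRSham. Cdkn1b (p27) fell after MI (-0.47 ± 0.08) and was not called after IR (-0.18 ± 0.08). Cdkn2d rose after MI (0.41 ± 0.11) and was not called after IR (0.21 ± 0.11). The inhibitors other than Cdkn1c were named after their values were seen. Of 13 tested E2F and DREAM factors 8 rose and 3 fell after MI (median 0.60), and 10 rose and 3 fell after IR (median 0.40). Foxm1 and Mybl2, activators of late cell-cycle genes, rose by 3.18 ± 0.33 and 3.12 ± 0.38 after MI, and E2f2 by 2.43 ± 0.30. Tfdp2, an E2F partner, E2f6, a repressor, and Lin52, a DREAM subunit, changed by -1.91 ± 0.23, -1.26 ± 0.09 and -0.94 ± 0.16.

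Of 17 histone chaperone and chromatin genes 12 rose and 5 fell after MI (median 0.66), and 12 rose and 4 fell after IR (median 0.58). Hells, a remodeller needed for DNA methylation, rose by 3.09 ± 0.33 after MI, and Tonsl and Mms22l, partners at stalled forks, by 2.78 ± 0.24 and 2.73 ± 0.33. Tet1 and Tet2, which oxidise methylcytosine, changed by -1.85 ± 0.21 and -0.47 ± 0.10 after MI (Tet2 was not called after IR, -0.23 ± 0.10), and the histone chaperone Asf1a by -0.37 ± 0.15. Tet3, of the same enzyme family and named after its values were seen, rose by 0.63 ± 0.09 after MI and 0.50 ± 0.09 after IR. All 10 mitosis genes rose after both injuries, with medians of 3.15 and 2.66, led by Bub1, a checkpoint kinase (3.40 ± 0.22), Ccnb1, cyclin B1 (3.37 ± 0.46), and Top2a, topoisomerase II alpha (3.27 ± 0.32). Of 15 DNA damage checkpoint genes 11 rose in each comparison. Exo1 and Brca1, both of recombination repair, rose by 3.51 ± 0.31 and 3.42 ± 0.22 after MI. The sensor kinases Atm and Atr did not pass after MI (-0.01 ± 0.13 and 0.05 ± 0.10). They were named after their values were seen.

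Macrophage markers and most fibroblast markers rose with the replication genes, cardiomyocyte markers fell, and endothelial markers moved both ways. The part of cell types in the result was not tested. For each marker list the shares over all genes are those above. They were 34.8% higher and 30.2% lower after MI, and 29.5% and 28.2% after IR. The summed level of the 39 genes was 1420 to 1860 CPM in MI and 378 to 548 in MISham, then 1050 to 1470 in IR and 439 to 539 in IRSham. The defining cardiomyocyte markers were detected in every library. All 10 fell in both injuries, from 89800 to 105000 summed CPM in MISham to 16000 to 28400 in MI, and from 93500 to 99200 in IRSham to 16600 to 35000 in IR. All 10 macrophage markers rose in both, from 605 to 1410 summed CPM in MISham to 2590 to 3740 in MI, and from 1090 to 1730 in IRSham to 3030 to 5300 in IR. Of 10 fibroblast markers 8 rose and 1 fell after MI and 9 rose after IR, and their summed level was 22800 to 27600 CPM in MI and 2460 to 9190 in MISham, then 26900 to 31200 in IR and 5960 to 8830 in IRSham. Of 10 endothelial markers 4 rose and 3 fell after MI and 1 rose and 5 fell after IR (1770 to 1860 CPM in MI, 1530 to 1700 in MISham, 1180 to 1730 in IR, 1530 to 1680 in IRSham).

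The remaining marker lists were smaller or mixed. Of 6 tested neutrophil markers 5 rose after MI and 2 after IR, with 247 to 573 summed CPM in MI and 34.9 to 117 in MISham, then 98.7 to 236 in IR and 34.3 to 131 in IRSham. The neutrophil genes Ly6g, Camp, Ngp and Ltf did not pass the filter and were at 0 in 2 to 8 of the 16 libraries. Of 10 lymphocyte markers 7 rose after MI and 2 after IR, at 13.3 to 15.6 summed CPM in MI and 4.80 to 10.3 in MISham, then 11.5 to 17.6 in IR and 7.79 to 13.2 in IRSham. Of 10 pericyte and smooth muscle markers 6 rose and 4 fell after MI, and 4 rose and 4 fell after IR (1270 to 1350 CPM in MI, 1580 to 1670 in MISham, 1240 to 1530 in IR, 1850 to 2030 in IRSham). Of 6 tested erythroid markers 1 rose after IR and the 6 did not pass after MI (185 to 564 CPM in MI, 252 to 532 in MISham, 238 to 1330 in IR, 192 to 428 in IRSham).

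**Figure D4:**
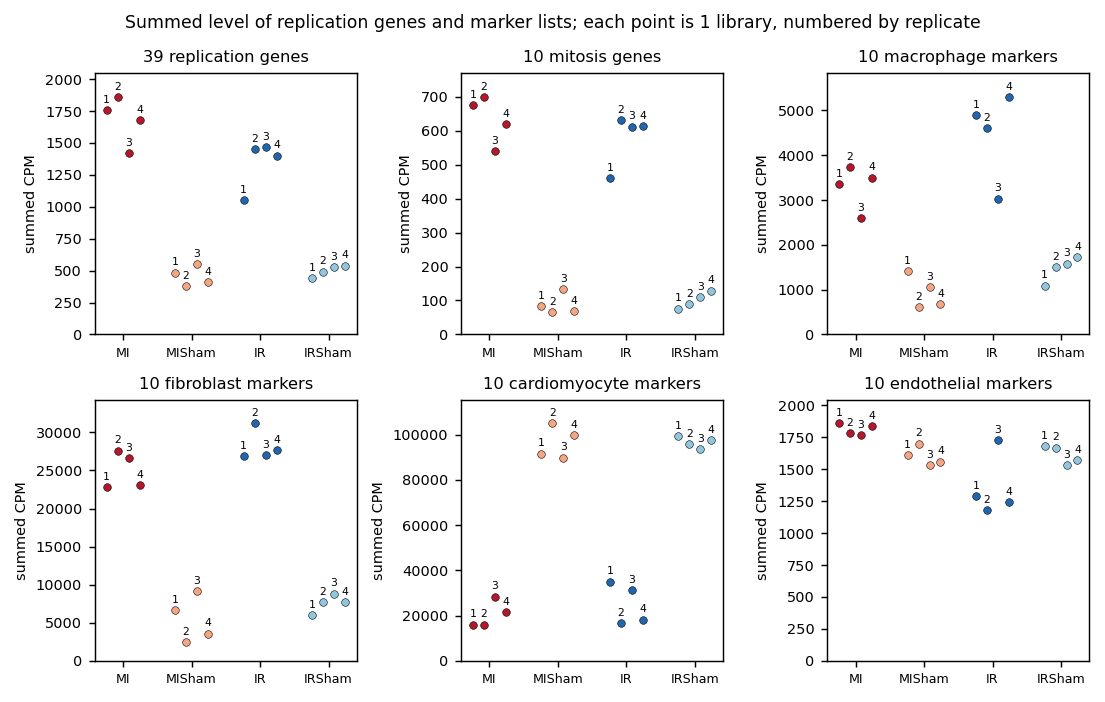
Summed CPM (y axis, from 0) of the 39 replication genes, 10 mitosis genes and the macrophage, fibroblast, cardiomyocyte and endothelial markers; each point is 1 library with its replicate number. The replication genes range from 1050 to 1860 CPM in the injured libraries and from 378 to 548 in the shams, with MI replicate 3 and IR replicate 1 lowest of their groups.

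In MI, IR and MISham the same libraries were highest or lowest for most replication genes. MI replicate 3 was the lowest MI library for 36 of the 39 genes and MI replicate 2 the highest for 29. IR replicate 1 was the lowest IR library for 35, and IR replicates 2 and 3 were each the highest for 18. In MISham, replicate 3 was the highest for 30, and replicates 2 and 4 were the lowest for 23 and 14. In IRSham, replicate 1 was the lowest for 22 and replicates 3 and 4 were each the highest for 15, so no IRSham library was highest for most. The same ranks over all genes were not counted. On the principal component above, MI replicate 3 (-67.4) and IR replicate 1 (-48.5) were the libraries of their groups nearest to the shams. The summed level of the 39 genes was 485, 378, 548 and 410 CPM in MISham replicates 1 to 4. The macrophage markers of the same libraries summed to 1410, 605, 1050 and 674 CPM, and the fibroblast markers to 6690, 2460, 9190 and 3580 CPM. For the 39 genes the sums were 1760, 1860, 1420 and 1680 CPM in MI and 1050, 1450, 1470 and 1400 in IR. The macrophage sums were 3350, 3740, 2590 and 3500 CPM in MI and 4890, 4600, 3030 and 5300 in IR. The fibroblast sums were 22800, 27600, 26600 and 23100 CPM in MI and 26900, 31200, 27000 and 27700 in IR. IR replicate 3 was thus highest for the 39 genes and lowest for the macrophage markers. The cardiomyocyte sums were 91600, 105000, 89800 and 99600 CPM in MISham. They were 16000, 16000, 28400 and 21400 CPM in MI and 35000, 16600, 31400 and 18200 in IR. MI replicate 3 and IR replicate 1, lowest for the 39 genes, were highest for these markers. The part of cell types in this spread was not tested.

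The rise after MI was compared with that after IR by the difference of the 2 responses. None of the 39 genes was called by edgeR, where 0.192% of all genes were called. At an unadjusted p under 0.05 there were 14, all with a larger rise after MI, and DESeq2's Wald test called 2, Mcm7 and Cdc45. The difference was positive for 36 of the 39, with a median of 0.51 against 0.04 for all genes. The sham groups enter this difference, and MISham was higher than IRSham for 5 of the 39, with a median of -0.18 against -0.04 for all genes. The smallest adjusted p was that of Mcm7 (0.71 ± 0.15, adjusted p = 0.0678), which was named after its value was seen. Mcm7 stood at 59.6, 61.4, 46.3 and 57.2 CPM in MI, 14.8, 12.6, 15.3 and 12.5 in MISham, 35.7, 47.0, 47.3 and 43.7 in IR, and 15.8, 18.3, 18 and 17.9 in IRSham. All MISham libraries were below all IRSham libraries for Mcm7, as for 4.19% of all genes, and MI and IR overlapped. For 12 of the 39 genes all MI libraries lay above all IR libraries, as for 10.1% of all genes.

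The difference depended on the MISham libraries. MISham replicates 1 and 3 were left out after the data were seen, because of their place on the principal component. In MISham, replicate 3 was the highest for 30 of the 39 genes and replicate 1 for 7. This choice thus lowered the mean MISham level of most of these genes, which enlarges the rise after MI, and shaped the calls below. It kept MISham replicates 2 and 4, which lay beyond the range of the IRSham libraries on that component. Without replicates 1 and 3, edgeR called 18 of the 39 genes with a larger rise after MI, against 4.46% of all genes. The 18 were Orc1, Cdc6, Mcm3, Mcm5, Mcm6, Mcm7, Cdc45, Gins2, Pole, Pold1, Lig1, Tyms, Tk1, Uhrf1, Dnmt1, Chaf1a, Chaf1b and E2f1, with edgeR adjusted p from 0.00601 (Lig1) to 0.0473 (Cdc45). Between the sham groups none of the 39 was called by edgeR, where 3.2% of all genes were. There were 6 at an unadjusted p under 0.05, and DESeq2's Wald test called 1, Ccne2, higher in MISham. Without MISham replicates 1 and 3, 13 were lower in MISham than in IRSham, where 5.55% of all genes were lower.

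Transcripts were read from the TPM table, which holds 218 transcripts of the members. Of these, 75 transcripts of 37 genes had a mean TPM of at least 1 over the 16 libraries, and none of Orc1 or Cdc45 did. Transcripts low in the shams could pass this filter through the injured libraries alone, among members and among all transcripts. Mcm5-205, for example, was listed at 0 TPM in every sham library. After MI 67 of the 75 were called higher and 1 lower by limma on log2(TPM + 1), where 49% of all transcripts were higher and 10.1% lower. After IR 63 were higher and 1 lower, where 42.5% and 9.23% of all were. The transcript that fell in both was Gmnn-203, a coding transcript of 723 bases, while its longer coding partner Gmnn-202 passed in neither. Gmnn-203 stood at 2.71, 0.854, 2.53 and 1.45 TPM in MI against 4.90, 5.38, 5.05 and 5.31 in MISham, a log2 change of -1.15 ± 0.23 (limma adjusted p = 0.000668). In IR it stood at 2.32, 2.52, 2.26 and 1.29 TPM against 3.04, 6.35, 4.30 and 5.82 in IRSham, a change of -0.91 ± 0.23 (limma adjusted p = 0.00468). The groups did not overlap. Of 20 transcripts that keep an intron, 16 rose after MI and 13 after IR. None of the 75 was called by limma in the difference of responses, where 0.084% of all transcripts were, and 13 had an unadjusted p under 0.05.

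Transcript share, the percent of a gene's annotated TPM held by a transcript, could be tested for 84 transcripts of 24 members. It was called at a change of at least 10 percentage points. Genes entered at a mean summed TPM of at least 5 over all 16 libraries, so some entered through the injured libraries alone. Mean summed TPM in MISham and IRSham was 3.37 and 4.36 for Mcm7, 3.01 and 4.31 for Mcm5, and 2.13 and 1.42 for Tyms. For Gins2 it was 2.44 and 2.89. Sham shares of these genes rest on low levels. After MI 3 shares were higher and 1 lower, where 2.95% and 2.96% of all transcripts were. After IR 4 were higher and 1 lower, where 1.96% and 1.92% were. Among the 84, the MI counts and the lower count after IR were near those shares. The calls below describe single transcripts and not the members as a set. The share called in both injuries was that of Mcm7-201, a coding transcript of 2962 bases. It held 53.6, 53.4, 33.7 and 44.3% of Mcm7 TPM in MI and 8.89, 5.02, 20.8 and 17.0% in MISham. It held 31.8, 33.8, 40.1 and 29.7% in IR and 0, 15, 7.12 and 14.9% in IRSham. The groups did not overlap, and the change was 33.3 ± 4.9 points after MI (limma adjusted p = 0.00092) and 24.6 ± 4.9 points after IR (limma adjusted p = 0.0111). The mean TPM of Mcm7-201 was 0.41 in MISham and 0.472 in IRSham.

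Tk1-201, a coding transcript of thymidine kinase, went from 18.3, 19.4, 19.8 and 22.3% of Tk1 TPM in MISham to 40.5, 41.1, 35.3 and 41.2% in MI, a change of 19.6 ± 3.9 points (limma adjusted p = 0.00711). The MI and MISham libraries did not overlap. Gmnn-202 went from 84.9, 79.3, 82.1 and 79.8% in MISham to 90.7, 95.2, 91.3 and 92.1% in MI, a change of 10.8 ± 2.4 points (limma adjusted p = 0.0138). Gins2-203, which keeps an intron, held 70.3, 61.7, 0 and 38.0% in MISham and 0.456, 1.5, 1.51 and 2.14% in MI, a change of -41.1 ± 10.6 points (limma adjusted p = 0.03). MISham replicate 3 was listed at 0 for Gins2-203, so these groups overlapped, and the mean TPM of the transcript was 0.694 in MISham and 0.285 in MI.

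After IR the shares called besides Mcm7-201 lay in Mcm5, Tyms and Tk1. Mcm5-205, a coding transcript of 2653 bases, was listed at 0 in all 8 sham libraries and held 16.5, 7.56, 27.5 and 42.2% of Mcm5 TPM in IR, a change of 23.5 ± 5.5 points (limma adjusted p = 0.0252). It held 28.3, 19.2, 15 and 12.5% in MI, where it was not called (limma adjusted p = 0.0536). Mcm5-203, of 2604 bases, gave up share in IR (63.5, 85.6, 60.9 and 49.2% against 93.8, 81.4, 95.4 and 95.8% in IRSham, -26.8 ± 6.7 points, limma adjusted p = 0.0346). Tyms-207, a transcript annotated for nonsense-mediated decay, held 47.7, 34.2, 50.2 and 40.1% in IR and 1.32, 0, 0 and 0% in IRSham, a change of 42.7 ± 8.2 points (limma adjusted p = 0.00911). Its mean TPM was 6.04 in IR and 0.00384 in IRSham. In MISham the share of Tyms-207 was 46.7, 1.92, 24.1 and 0%, so that replicates 1 and 3 lay apart from replicates 2 and 4, and the MI change was not called. Tk1-203, which keeps an intron, held 32.1, 35.4, 45.6 and 32.5% in IR and 28.2, 5.49, 22.5 and 25.1% in IRSham, a change of 16.1 ± 4.2 points (limma adjusted p = 0.0461). None of the 84 shares was called by limma in the difference of responses, where 0% of all transcripts were, and 7 had an unadjusted p under 0.05.

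The share calls differed in how they held when 1 library was left out. The MI count went from 4 to between 2 (without MI replicate 2) and 9 (without MISham replicate 3), and the IR count from 5 to between 3 and 5, or to 2 with the replicate block. Over the 16 such fits, Mcm7-201 in both comparisons, Tk1-201 after MI and Tyms-207 after IR kept their calls. Each fit kept the same entry rule, so it does not address the low sham levels of Mcm7 and Tyms. Gins2-203 lost its call in 7 and Gmnn-202 in 1 (without MI replicate 2). After IR, Tk1-203 lost its call in 15, Mcm5-203 in 6 and Mcm5-205 in 5, and all 3 lost it with the replicate block.

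**Figure D5:**
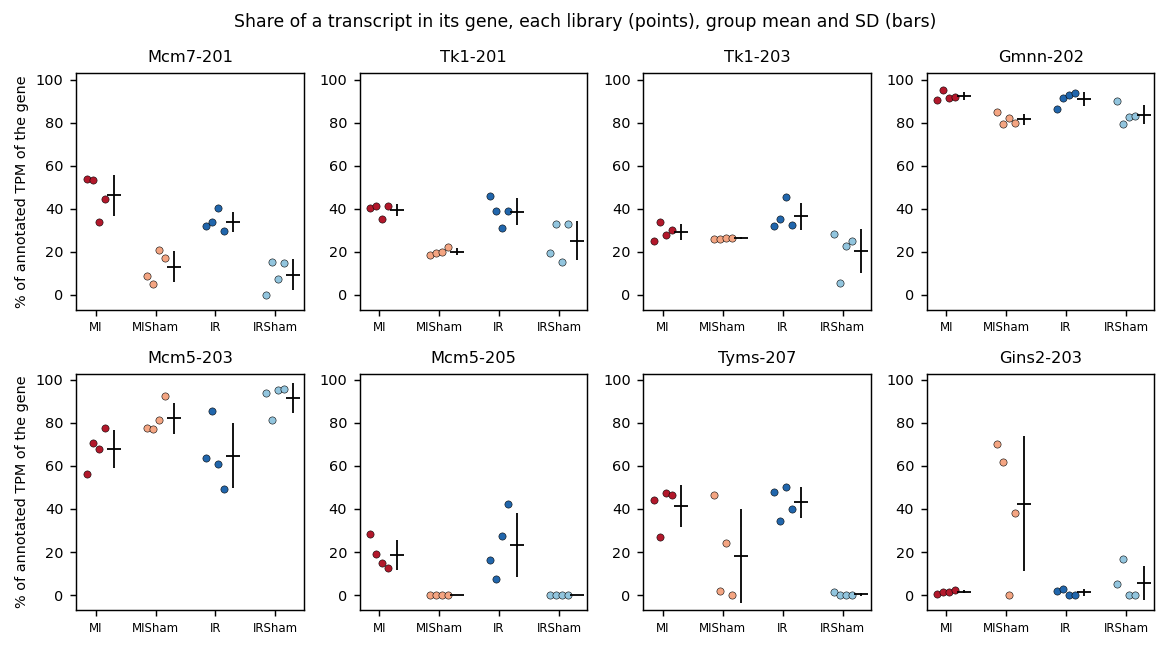
Percent of the gene's annotated TPM (y axis) held by each transcript that was called after MI or IR, in each library (points) with the group mean and SD as bars, which can reach below 0. Mcm7-201 lies between 29.7 and 53.6% in the injured libraries and between 0 and 20.8% in the shams, while Gins2-203 and Tyms-207 spread widely among the MISham libraries.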

How the data were processed

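Raw counts per gene and TPM per transcript were used as deposited by the authors. The build GRCm39 and the tools kallisto 0.50.1, HISAT2 2.2.1, featureCounts 2.0.1 and SAMtools 1.7 are named, without their roles, per the submitters' processing notes. The annotation release and strand setting are not stated there. The 16 short-read libraries were used; the 4 long-read libraries were not analysed here, and 2 columns of the TPM table that name no sample were not used.

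Symbols came from the gene name table and GENCODE M21 (52080 genes; 138329 of 163740 transcripts matched). Counts were filtered (filterByExpr, minimum count 10, minimum total 15), scaled by TMM and tested with edgeR 4.0.16 (quasi-likelihood, robust, 1 mean per group over all 16 libraries, R 4.3.3), with Benjamini-Hochberg adjustment over 19741 genes. Transcripts averaging 1 TPM or more entered limma 3.58.1 on log2(TPM + 1), a scale that understates changes of low transcripts. Transcript shares entered limma where the gene's summed TPM averaged 5 or more and 2 or more of its transcripts averaged a share of 5% or more. Both were adjusted over all transcripts tested. The edgeR and limma scripts were tested on simulated data.

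The alternatives were other size factors, no filter, DESeq2 1.42.0, the replicate number as a block, fits of the compared groups alone, each library left out, a fold threshold of 2 and other TPM settings. Summed TPM and the sets without replicates 1 and 3 were added after seeing the data. No replicate pair agreed within sampling noise (lowest chi-square per degree of freedom 10.15).

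The members and lists were chosen with earlier results of these data known. All 39 genes are named. Full values are given for the gene of each role with the largest change after MI, for genes that did not pass in MI or IR, and for genes against their role's direction. Of each other list up to 3 genes with the largest called change in each direction are named, and of the transcripts those with a called share or called against their gene. Some genes that this rule names are not reported here.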

Additional observations from a re-analysis of the deposited data

Results flagged for a closer look

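Of 156 groups of 4 libraries, 1 for each gene and group, 10 held a library whose gap to the nearest other took up more of the group's range than Dixon's critical value allows. Chance flags about 1 in 20 groups, and genes of 1 library are not independent.

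IR replicate 1 was low in 5 of these. Pcna stood there at 89.3 CPM (the others 128 to 131), Rrm1 at 76.2 (107 to 113) and E2f1 at 19.3 (27.2 to 28.1). Rfc5 stood at 17.2 CPM (24.6 to 26.0) and Ccne1 at 7.44 (9.70 to 9.96). IRSham replicate 1 was low for Pcna, at 43.3 CPM (52.6 to 53.1), and for Rrm2, at 4.53 (6.62 to 6.89). MI replicate 3 was low for Gins2, at 15.2 CPM (16.6 to 16.7), and for E2f8, at 12.8 (17.0 to 17.8). IRSham replicate 4 was high for Pold1, at 31.3 CPM (25.9 to 26.7).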

How the results depend on the processing

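The 38 genes called after MI stayed 38 with each library left out, and the 37 after IR were 36 to 37. With the replicate number as a block they were 38 and 37, and 0 in the difference and between shams. The deviations of same-numbered injured and sham libraries had correlations of -0.056 to 0.051. The same-numbered sham was the best match for MI replicates 1 and 4 and IR replicates 1 and 2. Another sham was for MI replicates 2 and 3 and IR replicates 3 and 4. Such values cannot decide whether the numbers stand for a pairing or batch. In the difference of responses 0 genes were called, but 1 without a filter on low counts, 2 with DESeq2, 18 without MISham replicates 1 and 3, and 0 to 2 with 1 library left out: 1 without IR replicate 3, 1 without MI replicate 3, and 2 without MISham replicate 3. Between the shams 0 became 1 with DESeq2, 13 without MISham replicates 1 and 3, and 0 to 2 with 1 library left out, 2 being without MISham replicate 3. The cause was not tested.

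Transcripts called after MI were 68, 113 with no filter on low values (more were tested), and 63 to 69 with 1 library left out. After IR they were 64, and 61 to 64. Shares called after MI were 4, and 2 (without MI replicate 2) to 9 (without MISham replicate 3). After IR they were 5, then 3 at a mean summed TPM of at least 1, 2 with the replicate block, and 3 to 5 with 1 library left out, 3 being without IR replicate 1, 3 or 4 or IRSham replicate 3.

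Of 1247 gene values recomputed, 1234 kept direction and call, 5 lost the call, 3 gained it and 5 reversed. All 5 reversals were of Dut: 0.27 with library size alone, 0.00 without MISham replicate 3 and 0.68 by summed TPM after MI, and -0.06 without IR replicate 3 and -0.03 without IR replicates 1 and 3. With each library left out in turn Dut ran from -0.1 to 0.00 after MI and from -0.06 to 0.1 after IR. Fen1 could not be fitted in the IR groups alone. Its low counts, down to 1 in a library, limit its precision.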
